A study of Sus scrofa with 48 samples.

Results

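The fasting response of fat was measured in gilts that carry the N298 form of the melanocortin 4 receptor, MC4R. The arrays were chosen by their titles, 6 of fat from fasted N298 gilts and 6 of fat from N298 gilts fed freely, and they make up 12 of the 48 arrays of the study. All the gilts were Yorkshire females, 6 months of age, of a genetic line with low residual feed intake, whose pigs eat less feed than their growth and weight would predict. The fasted N298 gilts had no feed for 3 days and the fed N298 gilts ate without restriction over those 3 days, and both groups were homozygous for N298. The other fat arrays came from gilts homozygous for the wild-type D298 form, 6 fasted and 6 fed, and liver of the same gilts was measured too, so that 24 gilts gave 48 arrays. Each array is from 1 gilt and the fat depot sampled is not given in the labels.

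White fat stores triglyceride made from blood glucose and acetate or taken up from lipoproteins, and in pigs it is the main site of fatty acid synthesis. Insulin in the fed state favours glucose uptake, fatty acid synthesis and storage, while in fasting low insulin and high catecholamines favour lipolysis, which releases fatty acids and glycerol to the blood. MC4R is a receptor of the brain that lowers appetite and raises energy use, and N298 changes an amino acid in it.

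The values are signals of the porcine Affymetrix array on a linear scale, scaled to a common level by the submitters, and changes are log2 of fasted over fed with the standard error (SE) of limma, 6 arrays against 6. A probe set was called at a Benjamini-Hochberg adjusted p under 0.05 over all 23999 probe sets. MC4R itself was near the floor of the array in fat, with a signal of 4.82 at the lowest, 19.9 at the median and 31.0 at the highest in fasted gilts, against 0.947, 20.2 and 32.9 in fed gilts. MC4R did not pass the test (log2 0.68 ± 0.79, adjusted p = 0.655), and the array does not read the genotype. The tissue carried the markers of adipocytes: adiponectin (ADIPOQ) was at 20040 to 33790 in fasted and 15100 to 27700 in fed gilts, and the fatty acid binding protein FABP4 was at 19720 to 25770 in fasted and 16970 to 24240 in fed gilts.

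Some fat arrays also carried signal of other tissues. Mean log2 signal of 17 skeletal muscle markers ran from 5.47 to 11.8 in fasted gilts (median 7.44) and from 4.51 to 11.6 in fed gilts (median 9.60), and no marker of that list was called. The 12 hepatocyte markers had a mean of 5.70 to 6.35 in the 6 fasted gilts, against 9.60 and 9.73 in fed replicates 3 and 6 and 5.58 to 6.09 in the other fed gilts. Albumin (ALB) showed this most plainly, at 9507 and 9282 in those 2 fed arrays and at no more than 259 in the other 10. Fed replicate 1 stood apart in 11 macrophage markers, with a mean of 9.53 against 8.41 in the next highest array. The 3' to 5' ratio of the GAPDH control probes rises as RNA is degraded. On the log2 scale it was 0.655 to 2.44 (median 2.03) in fasted and 0.608 to 1.51 (median 1.14) in fed gilts. The actin ratio was 1.43 to 1.95 (median 1.84) in fasted and 1.24 to 2.15 (median 1.37) in fed gilts. In each group the lowest GAPDH ratio was on the array with the highest muscle mean, fasted replicate 6 (11.8) and fed replicate 3 (11.6). The GAPDH ratio as a covariate thus cannot tell RNA quality from muscle signal. Results are therefore also given from 4 settings chosen after the data were seen, of which 2 leave out arrays and 2 add covariates, the GAPDH ratio or the muscle and hepatocyte marker means. The first leaves out arrays whose hepatocyte mean was above 8 and keeps 6 fasted and 4 fed N298 gilts, and the second also leaves out arrays whose muscle mean was above 10 and keeps 4 fasted and 4 fed. Smaller groups also have less power, and how much of the change in calls comes from this was not tested. The labels do not say how tissue was dissected, and what these signals contribute to the results was not tested beyond these 4 settings.

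Fasting changed a large share of the genes measured in N298 fat. Of 23999 probe sets 3718 were called (15.5%), 2176 higher (9.07%) and 1542 lower (6.43%) in fasted gilts, and a 2-fold change or more was found in 259 probe sets that rose and 393 that fell. The share of rises was 58.5%, against 44.5% (1435 higher and 1791 lower) with each array centred on its median and 52.0% (1831 and 1687) after quantile normalization. Of 6765 genes, each represented by its brightest probe set, 1522 were called (22.5%), 657 higher (9.71%) and 865 lower (12.8%), with a median change of -0.0017 over all genes. In 510 genes (7.54%) all 6 fasted gilts were below all 6 fed gilts, and in 279 (4.12%) all were above. The median SD among replicates was 0.354 log2 units in fasted and 0.377 in fed gilts. Without the arrays high in hepatocyte markers 2434 probe sets were called, and without those high in muscle or hepatocyte markers 1342. With the GAPDH ratio as a covariate 2071 were called. In a whole-tissue sample, fewer cells of a type and less RNA per cell cannot be told apart.

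The 12 largest falls among brighter genes were led by creatine kinase B, fatty acid synthase and the peptidoglycan amidase PGLYRP2. CKB, which buffers ATP through phosphocreatine, had a signal of 148 at the lowest, 229 at the median and 285 at the highest in fasted gilts, against 1858, 2736 and 5144 in fed gilts. The highest fasted gilt was thus far below the lowest fed gilt, and CKB fell by 3.70 ± 0.32 (log2), which leaves a fold of 0.0767 (adjusted p = 2.6e-07). FASN, which joins acetyl units into palmitate, was at 1353, 2145 and 2813 in fasted and 19420, 21430 and 23670 in fed gilts. The fed gilts lay within a narrow range and no fasted gilt came near it for FASN (-3.42 ± 0.27, adjusted p = 9.69e-08). PGLYRP2, which cleaves bacterial cell wall peptides and is best known from liver, was at 71.0, 115 and 149 in fasted and 631, 962 and 2580 in fed gilts, again with no overlap (-3.25 ± 0.31). In 11 of the 12 largest falls the groups did not overlap, beside 7.54% of all genes. The 12 were picked by their change on the same arrays, so this count describes them and is no further test.

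Steroid handling, fructose uptake and serine synthesis were also among the largest falls. STAR, which carries cholesterol into mitochondria for steroid synthesis, fell by 2.64 ± 0.35, with 81.1, 108 and 359 in fasted and 283, 910 and 1635 in fed gilts. It was the fall with overlap, since fasted replicate 3 (359) was above fed replicate 1 (283). SLC2A5, the fructose transporter, was at 195, 314 and 552 in fasted and 1087, 1530 and 2737 in fed gilts (-2.30 ± 0.44). PSPH, the last enzyme of serine synthesis, was at 377, 481 and 723 in fasted and 2107, 2711 and 3589 in fed gilts (-2.48 ± 0.22). Neither SLC2A5 nor PSPH overlapped between the groups. CHRNA1, a subunit of the acetylcholine receptor of skeletal muscle, was at 91.5, 155 and 175 in fasted and 484, 903 and 1527 in fed gilts (-2.54 ± 0.36), while the 17 muscle markers held no call. The other 5 falls, SLC25A1, ACSS2, ACACA, ME1 and FDPS, were genes of fatty acid and sterol synthesis and are described with their lists.

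Among the 12 largest rises CYP2B22, HSD3B1 and SULT1A3 had the highest folds. SULT1A3, a sulfotransferase of phenols and catecholamines, was at 8622, 11030 and 13130 in fasted and 2403, 3059 and 4149 in fed gilts, a rise of 3.53-fold (log2 1.82 ± 0.15, adjusted p = 1.29e-07). HSD3B1, a dehydrogenase of steroid hormone synthesis, was at 465, 624.9 and 994 in fasted and 139, 191 and 235 in fed gilts (1.82 ± 0.21). For both genes every fasted gilt was above every fed gilt. CYP2B22, a cytochrome P450, varied more, with 716, 1836 and 4607 in fasted and 244, 492.7 and 789 in fed gilts, and fasted replicate 4 (716) was below fed replicate 2 (789). It rose by 1.95 ± 0.36, and as CYP2B22 and SULT1A3 belong to families of near-identical genes, signal from relatives is possible.

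GPIHBP1, which anchors lipoprotein lipase on capillary endothelium, was at 2253, 2750 and 4695 in fasted and 418, 1055 and 1429 in fed gilts (1.67 ± 0.26). CLDN5, a tight junction protein of endothelium, was at 2690, 3910 and 4649 in fasted and 657, 1395 and 2437 in fed gilts (1.45 ± 0.28). The fasted gilts were all above the fed gilts in both genes, as they were in KLF11, a transcription factor of the Krüppel-like family. KLF11 was at 744, 805 and 950 in fasted and 146, 248 and 527 in fed gilts (1.58 ± 0.31). DPP4, a peptidase that inactivates incretin hormones, was at 173, 377 and 445 in fasted and 110, 125 and 161 in fed gilts (1.41 ± 0.29). PLLP, a membrane protein of myelin and epithelia, was at 440, 923 and 1066 in fasted and 173, 338 and 503 in fed gilts (1.42 ± 0.20). Of these 2, only PLLP overlapped, through fasted replicate 4, which was also the lowest fasted gilt in DPP4. LOC100518827 (1.49 ± 0.12) and the cytokine IL17B (1.37 ± 0.27) completed the rises, and further IL17B probe sets gave 0.07 and 1.02, neither called.

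AQP3 and ANGPTL4 differed widely among the fed gilts. AQP3, a channel for water and glycerol, was at 5115, 7887 and 10780 in fasted and 989, 2107 and 5631 in fed gilts (1.64 ± 0.37, adjusted p = 0.00407). ANGPTL4, a secreted inhibitor of lipoprotein lipase, was at 2767, 3422 and 4646 in fasted and 409, 1009 and 3405 in fed gilts (1.47 ± 0.36, adjusted p = 0.0068). In both genes the overlap came from the same 2 fed gilts: replicates 1 and 5 had 5273 and 5631 for AQP3 and 3091 and 3405 for ANGPTL4, against at most 2602 and 1076 in the other 4. The same gilts were highest among the fed for KLF11 (441 and 527) and for PCK1, the enzyme that starts glyceroneogenesis (5320 and 2966, against at most 1215 in the other 4). PCK1 was at 2483, 3353 and 6737 in fasted gilts and missed the threshold (1.38 ± 0.52, adjusted p = 0.0797), but passed without fed replicate 1 (adjusted p = 0.0411) or fed replicate 5 (adjusted p = 0.0445). ANGPTL4 rose by 0.98 without the arrays high in hepatocyte markers, and both AQP3 and ANGPTL4 lost their calls without those high in muscle or hepatocyte markers and with the GAPDH ratio as a covariate. Of the 12 rises, picked in the same way as the falls, 8 had no overlap between the groups, beside 4.12% of all genes.

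**Figure D1:**
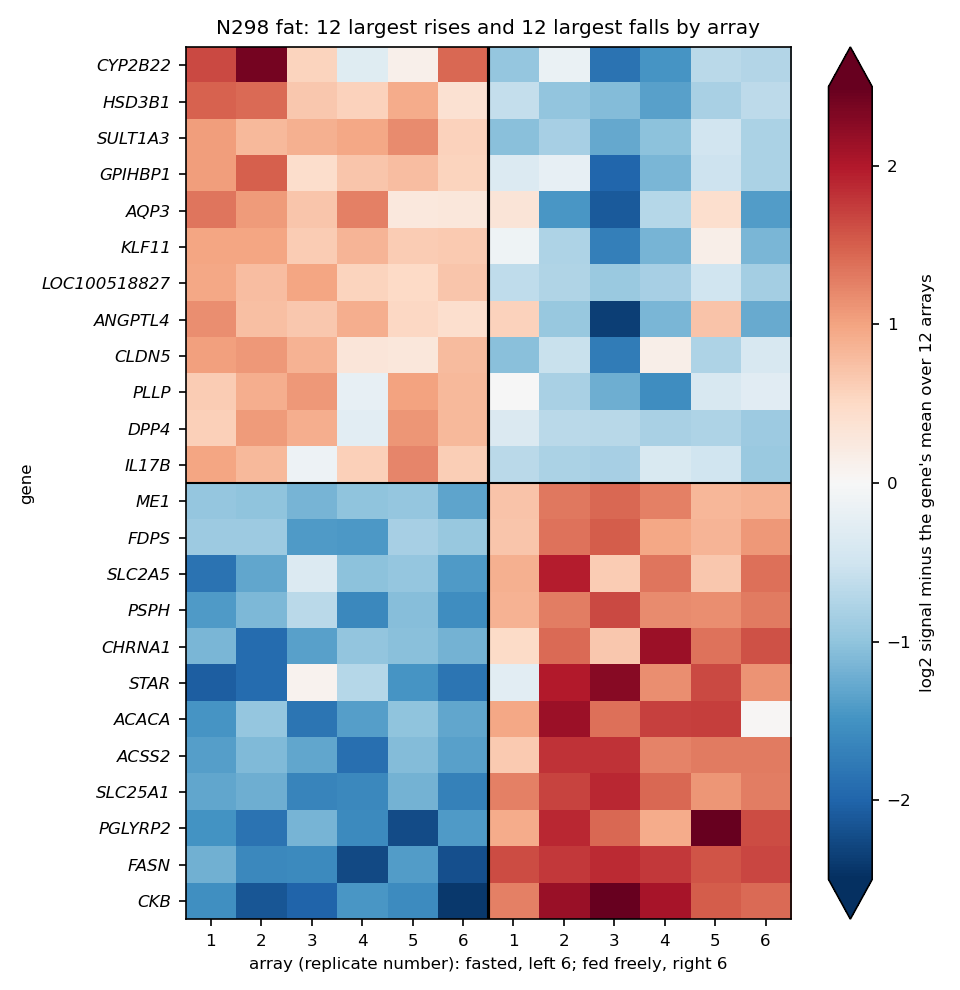
Log2 signal of the 12 largest rises (upper rows) and 12 largest falls (lower rows) in N298 fat, each row minus its own mean over the 12 arrays, with the 6 fasted arrays left of the line and the 6 fed arrays right of it. The rows were picked by their change on these arrays, and the falls separate the groups in 11 of 12 rows. AQP3 and ANGPTL4 are above their row means in fed replicates 1 and 5 too, which had 3091 and 3405 for ANGPTL4.

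Genes of fatty acid synthesis fell at several steps, from the supply of acetyl-CoA to desaturation. The gene lists here and below were chosen with earlier results of these data known, so their counts are a description and no further test. Over all genes 12.8% were lower and 9.71% higher, shares that stand beside the counts of every list. Of 19 measured genes of fatty acid synthesis 11 fell and 1 rose, with a median of -0.91. The mean log2 signal of the list was 9.66 to 9.89 on the fasted arrays and 10.7 to 11.2 on the fed arrays, so that the groups were far apart relative to their own ranges. SLC25A1, the carrier that brings citrate out of mitochondria, was at 1497, 1780 and 2123 in fasted and 10340, 12480 and 17790 in fed gilts (-2.89 ± 0.19, adjusted p = 1.04e-08). ACSS2, which makes acetyl-CoA from acetate, was at 587, 867 and 1018 in fasted and 3401, 5355 and 7639 in fed gilts (-2.70 ± 0.23). Both were several times lower in every fasted gilt than in any fed gilt.

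Acetyl-CoA carboxylase (ACACA), the committing step, was at 50.8, 71.4 and 91.5 in fasted and 184, 525 and 794 in fed gilts (-2.65 ± 0.31), with no overlap. A second, dimmer ACACA probe set gave -0.20 and was not called. Further FASN probe sets gave -4.80, -4.61 and -1.96, all called. Of the genes that supply NADPH, malic enzyme (ME1) was at 3280, 4099 and 4224 in fasted and 13430, 17290 and 22050 in fed gilts (-2.14 ± 0.24), and PGD of the pentose phosphate pathway fell by 1.51 ± 0.16. Stearoyl-CoA desaturase (SCD) was at 4244, 6092 and 8747 in fasted and 22300, 25210 and 27050 in fed gilts (-2.04 ± 0.31). All 6 fasted gilts were below all 6 fed gilts in ME1, PGD and SCD alike. SREBF1, the transcription factor of lipid synthesis genes, was dim, at 25.4, 84.9 and 147 in fasted and 136, 197 and 253 in fed gilts, and fell by 1.34 ± 0.36 with overlap. Its call was lost without the arrays high in hepatocyte markers. SCD5, the desaturase that rose (0.97 ± 0.28), lost its call in 6 of the 12 fits that left out 1 array. Of this list 11 genes fell also without the arrays high in hepatocyte markers, and 9 without those high in muscle or hepatocyte markers.

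Genes of sterol synthesis were lower as well. Of 14 measured genes of sterol synthesis and uptake 8 fell and 1, the SREBP anchor INSIG2, rose (0.41 ± 0.11), with a median of -0.75. FDPS, which makes farnesyl diphosphate, was at 343, 489 and 520 in fasted and 1506, 1892 and 2659 in fed gilts (-2.15 ± 0.18). The thiolase ACAT2 was at 520, 545 and 751 in fasted and 1733, 2125 and 3203 in fed gilts (-1.90 ± 0.20). Neither overlapped, and nor did the late desaturase SC5D (-1.73 ± 0.19) or the lanosterol demethylase CYP51 (-1.24 ± 0.17). Squalene epoxidase (SQLE) gave -0.67 ± 0.25 (adjusted p = 0.0794) and HMG-CoA synthase (HMGCS1) -0.40 ± 0.20 (adjusted p = 0.204), neither called. Of the 14 genes 7 fell without the arrays high in hepatocyte markers and 4 without those high in muscle or hepatocyte markers, and INSIG2 lost its call in both fits.

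Among genes of triglyceride assembly, uptake and release the changes were at a few steps. Of 13 assembly genes 4 fell and none rose, beside 12.8% lower and 9.71% higher of all genes. The falls were led by DGAT2, which adds the last fatty acid to triglyceride. DGAT2 was at 3788, 4927 and 6362 in fasted and 12940, 16080 and 18390 in fed gilts (-1.70 ± 0.15, adjusted p = 4.36e-07). The acyltransferase AGPAT1 fell by 1.12 ± 0.20, and the groups overlapped in neither gene. DGAT1 (-0.54 ± 0.14) and AGPAT2 (-0.53 ± 0.16) fell with overlap, and AGPAT2 lost its call in 8 of 12 fits without 1 array. A second, dimmer DGAT1 probe set gave -0.12 and was not called. The 4 falls were 2 with the GAPDH ratio as a covariate or without the arrays high in muscle or hepatocyte markers. Of 18 genes of fatty acid uptake and binding 5 fell and 3 rose. ACSL1, which activates fatty acids, was at 5102, 6120 and 7587 in fasted and 10380, 13320 and 15050 in fed gilts (-1.07 ± 0.11), while its relative ACSL4 was at 1721, 1752 and 1984 in fasted and 1010, 1371 and 1520 in fed gilts (0.46 ± 0.082). These ranges lay apart in opposite directions. The transporter SLC27A6 fell by 1.24 ± 0.23 and GOT2, an aminotransferase that also binds fatty acids, by 0.78. FABP3 fell by 0.73 ± 0.15, beside FABP4 at 0.09 ± 0.11 (adjusted p = 0.666).

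Lipoprotein lipase (LPL), which frees fatty acids from circulating lipoproteins, was at 9988, 12950 and 14910 in fasted and 14290, 15590 and 16520 in fed gilts, a fall of 0.29 ± 0.098 at the edge of the threshold (adjusted p = 0.0479). The call was lost in 10 of 12 fits that left out 1 array, all but those without fasted replicate 3 or 6, while a second LPL probe set fell by 1.01 (adjusted p = 0.000672). The other rises on the uptake list were GPIHBP1 and ANGPTL4, both of which act on LPL, and 1 of the 3 rises was left without the arrays high in muscle or hepatocyte markers, beside 3 of the 5 falls. In lipolysis and lipid droplets 2 of 16 genes rose and none fell, beside 22.5% of all genes called in either direction. These were AQP3 and HILPDA, an inhibitor of the lipase PNPLA2 (0.67 ± 0.18). Without the arrays high in muscle or hepatocyte markers neither was called. RNA of the lipases did not pass the test, with PNPLA2 at 0.15 ± 0.14 (adjusted p = 0.532) and hormone-sensitive lipase (LIPE) at 0.18 ± 0.11 (adjusted p = 0.321). LIPE was at 8774, 9721 and 11220 in fasted and 7678, 8458 and 10600 in fed gilts, which overlapped widely. PLIN1 and G0S2 had no probe set with their symbol.

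Of 13 adipokines 1 rose and none fell, beside 9.71% and 12.8% of all genes. VEGFA, which drives vessel growth, was at 2803, 3191 and 3378 in fasted and 2129, 2408 and 3131 in fed gilts (0.34 ± 0.073, adjusted p = 0.0029), and the groups overlapped. That call was lost without the arrays high in muscle or hepatocyte markers. Leptin (LEP) ranged from 99.6 to 959 in fasted gilts (median 560) and from 358 to 1584 in fed gilts (median 650). With this spread the LEP change of -0.57 ± 0.50 was not detectable (adjusted p = 0.527), and that of ADIPOQ was 0.26 ± 0.15 (adjusted p = 0.274).

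Many genes of hexose uptake, glycolysis and the pyruvate dehydrogenase complex were lower. Of 24 genes of glycolysis and hexose uptake 12 fell and 1 rose (median -0.69), and 11 fell in both fits without the doubted arrays. The insulin-dependent transporter SLC2A4 was at 48.8, 123 and 158 in fasted and 135, 294 and 702 in fed gilts (-1.51 ± 0.28), though 2 dimmer SLC2A4 probe sets gave 0.31 and -0.34, neither called. Hexokinase 1 (HK1) was at 1236, 1437 and 1885 in fasted and 2799, 4164 and 5276 in fed gilts (-1.45 ± 0.17). The groups overlapped in SLC2A4 and not in HK1. Falls without overlap were also found for the aldolase ALDOC (-1.41 ± 0.17), for PGK1 (-1.12 ± 0.16) and for the enolase ENO1 (-1.04 ± 0.15). GAPDH, the gene of the control ratio, fell by 0.55. The rise was that of the pyruvate kinase PKM (0.28 ± 0.088), whose call was lost in 8 of 12 fits without 1 array.

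Of 10 genes of the pyruvate dehydrogenase complex, its kinases, the pyruvate carrier and the carboxylase PC 6 fell and 1, PC, rose. The same call of PC is also counted in the lists of the tricarboxylic acid cycle and of gluconeogenesis. PDHB, a subunit of the complex, was at 2638, 2889 and 3414 in fasted and 8958, 11080 and 15720 in fed gilts (-1.96 ± 0.16, adjusted p = 1.29e-07). DLAT, another subunit, fell by 1.35 ± 0.18 and MPC2 of the mitochondrial pyruvate carrier by 1.28 ± 0.18, all 3 without overlap. The kinase PDK4, which switches the complex off, was at 10260, 11110 and 13140 in fasted and 5031, 10480 and 13310 in fed gilts and did not pass (0.23 ± 0.21, adjusted p = 0.536). PC, the carboxylase that turns pyruvate to oxaloacetate, rose by 0.49 ± 0.10, with overlap, and lost its call without the arrays high in muscle or hepatocyte markers and with the GAPDH ratio as a covariate.

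Most genes of the mitochondrial respiratory chain were lower. Of 33 complex I subunits 28 fell and none rose, with a median of -0.77, and all 33 changes were below 0. In 24 of the 33 all fasted gilts were below all fed gilts, beside 7.54% of all genes. The list mean was 10.6 to 10.8 log2 units on the fasted arrays and 11.3 to 12.0 on the fed arrays. The highest fed array was replicate 3, which was also high in muscle and hepatocyte markers. NDUFS7 was at 695, 771 and 981 in fasted and 1718, 2392 and 4161 in fed gilts (-1.60 ± 0.17). NDUFB2 (-1.27 ± 0.14) and NDUFB8 (-0.88 ± 0.095) fell without overlap too. NDUFS3 fell by 1.34 ± 0.12, as did a second NDUFS3 probe set (-1.42), while another, dim one gave 0.11.

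Most genes of the later complexes fell too. Of 10 genes of complexes III and IV 8 fell (median -0.82), such as UQCR10 (-0.99 ± 0.12) and COX5B (-0.87 ± 0.11). Of 14 ATP synthase genes 12 fell (median -0.56). ATP5B, the catalytic beta subunit, was at 5198, 5635 and 6439 in fasted and 10450, 11600 and 15620 in fed gilts (-1.08 ± 0.11, adjusted p = 1.44e-06). Without the arrays high in hepatocyte markers 25 genes of complex I, 6 of complexes III and IV and 9 of ATP synthase fell. Without those high in muscle or hepatocyte markers the counts were 21, 5 and 6, with the GAPDH ratio as a covariate 24, 4 and 9, and with the muscle and hepatocyte marker means as covariates they were 28, 8 and 11.

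In the tricarboxylic acid cycle 14 of 21 genes fell and 2 rose (median -0.59). SDHC, a membrane anchor of succinate dehydrogenase, was at 1853, 2011 and 2195 in fasted and 3763, 4968 and 5991 in fed gilts (-1.27 ± 0.11). MDH2, the mitochondrial malate dehydrogenase, was at 1514, 1614 and 1765 in fasted and 2939, 3472 and 6900 in fed gilts (-1.26 ± 0.17). Both groups of fasted values were tight and well below the fed ones. The rises were PC and ACO1, whose brightest probe set gave 0.31 ± 0.10 and 2 others -1.75 and -1.37, so the direction of ACO1 is uncertain, and its call was lost in 8 of 12 fits without 1 array. The 14 falls were 11 without the arrays high in hepatocyte markers and 8 without those high in muscle or hepatocyte markers. Of 67 genes of the mitochondrial ribosome and protein import 33 fell and 3 rose (median -0.33), with MRPS28 lowest (-1.28 ± 0.12) and the import chaperone HSPA9 at -0.70 ± 0.098. The rises were MRPS22 (0.53 ± 0.14), MRPL53 (0.38 ± 0.089) and MRPS34 (0.35 ± 0.10). The count of falls was 25 without the arrays high in hepatocyte markers and 11 without those high in muscle or hepatocyte markers.

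**Figure D2:**
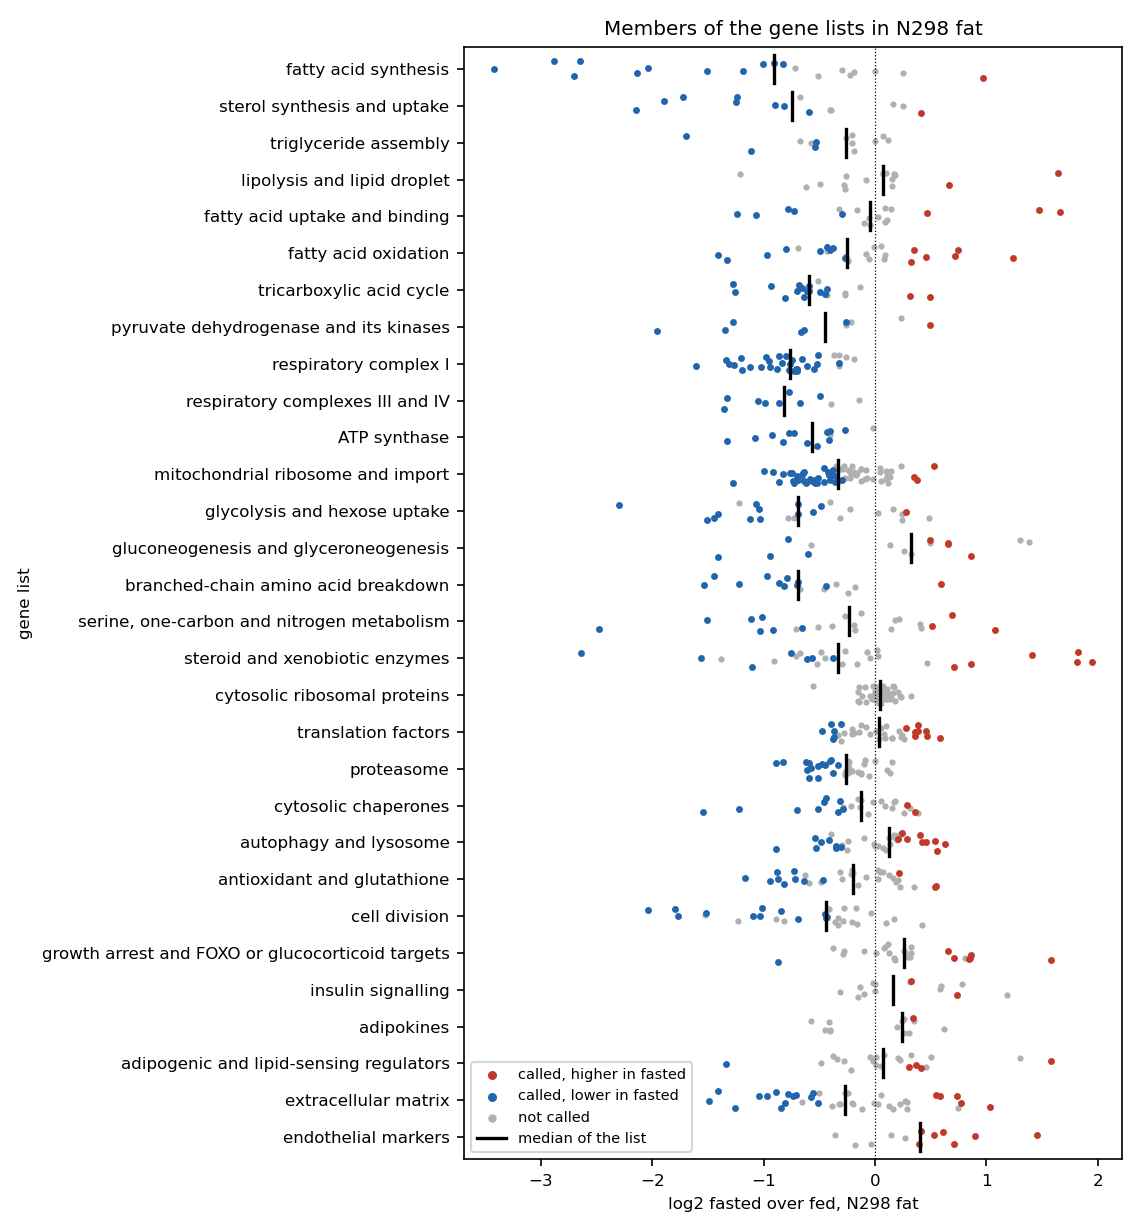
Log2 of fasted over fed in N298 fat for each measured member of 30 gene lists, red where called higher, blue where called lower and grey where not called, with the median of each list as a black bar. The 33 complex I subunits all lie left of 0, while the 58 cytosolic ribosomal proteins lie around 0 with no call.

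Of 26 genes of fatty acid oxidation 9 fell and 6 rose (median -0.25). The carnitine palmitoyltransferase CPT1A, which admits fatty acids to mitochondria, was at 1428, 1883 and 2373 in fasted and 832, 924 and 1738 in fed gilts (0.75 ± 0.20, adjusted p = 0.0114). The trifunctional protein subunit HADHA rose by 0.46 ± 0.070 and HADHB by 0.35 ± 0.086. CPT1A and HADHA overlapped between the groups, and HADHB did not. The muscle form CPT1B (1.24 ± 0.41) lost its call in 8 of the 12 fits without 1 array, and the uncoupling protein UCP3 (0.72 ± 0.19) without fed replicate 3 (adjusted p = 0.0523). A second UCP3 probe set gave 0.44 and was not called.

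Among the 9 falls that of ECI1 was the largest. ECI1, an isomerase for unsaturated fatty acids, was at 2201, 3162 and 3508 in fasted and 6930, 8180 and 8355 in fed gilts (-1.41 ± 0.14). ECHS1, the short-chain hydratase, was at 6636, 7618 and 9032 in fasted and 12180, 14920 and 19040 in fed gilts (-0.97 ± 0.11), and ETFA, which passes electrons on from the dehydrogenases, fell by 0.80 ± 0.10. None of the 3 overlapped. ECI2 fell by 1.33 ± 0.20 by its brightest probe set and a second one gave 0.25, not called. Rises numbered 3 without fed replicate 3, 2 without the arrays high in hepatocyte markers and 1 without those high in muscle or hepatocyte markers, and the 9 falls were 7 and 4 in these 2 fits. CPT1A lost its call in both of them.

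Of 16 genes for the breakdown of branched-chain amino acids, a further source of acetyl-CoA in adipocytes, 10 fell and 1 rose (median -0.69). BCKDHB, a subunit of the branched-chain ketoacid dehydrogenase, was at 906, 1115 and 1415 in fasted and 2468, 3322 and 4243 in fed gilts (-1.54 ± 0.18). IVD of leucine breakdown fell by 1.44 ± 0.17, its further probe sets by 1.34, 0.85 and 1.06, and the kinase BCKDK by 0.86 ± 0.11, each without overlap in the probe set used. BCKDHA, the partner subunit, rose by 0.59 ± 0.14. Of the 16 genes 9 fell without the arrays high in hepatocyte markers and 8 without those high in muscle or hepatocyte markers.

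In serine, one-carbon and nitrogen metabolism 7 of 22 genes fell and 3 rose. Besides PSPH, the first enzyme of serine synthesis, PHGDH, fell (-1.11 ± 0.22), as did the homocysteine hydrolase AHCY (-1.02 ± 0.14) and CTH, which makes cysteine (-1.04 ± 0.19). A second, dimmer AHCY probe set gave -0.28 and was not called. SHMT1, the cytosolic enzyme that splits serine to glycine, was at 1573, 2094 and 2571 in fasted and 800, 1019 and 1203 in fed gilts (1.08 ± 0.17). MAT2A, which makes S-adenosylmethionine, rose by 0.69 ± 0.11, and in both rises the groups lay apart. The aminotransferase OAT rose by 0.51 ± 0.12 with overlap. The 7 falls were 4 without the arrays high in muscle or hepatocyte markers. In the small creatine system CKB fell, GAMT, the last enzyme of creatine synthesis, fell by 0.78 ± 0.14, and the creatine transporter SLC6A8 was at 865, 1184 and 1804 in fasted and 472, 534 and 654 in fed gilts (1.13 ± 0.15). Creatine kinase B and the transporter thus moved in opposite directions, each with no overlap.

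Gluconeogenesis and glyceroneogenesis were mixed, with 4 of 15 genes higher and 4 lower, beside 9.71% and 12.8% of all genes. The alanine aminotransferase GPT was at 343, 397 and 527 in fasted and 669, 1165 and 1550 in fed gilts (-1.41 ± 0.16). The aspartate aminotransferase GOT1 fell by 0.95 ± 0.12, and neither GPT nor GOT1 overlapped. GOT2 and the glucose 6-phosphate transporter SLC37A4 (-0.61 ± 0.19) were the other falls. The rises were PC, the bisphosphatase FBP2 (0.66 ± 0.16), the glucocorticoid receptor NR3C1 (0.65 ± 0.18) and HSD11B1, which regenerates active glucocorticoid (0.86 ± 0.25). Leaving out fasted replicate 5 left 2 of the 4 rises, and leaving out the arrays high in muscle or hepatocyte markers left none, with 2 falls.

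Among genes of the protein machinery, calls were few in the ribosome and mostly lower in the proteasome and chaperones. None of 58 cytosolic ribosomal proteins was called, with changes from -0.55 to 0.33 and a median of 0.04. Of 37 translation factors 8 rose and 6 fell, beside 9.71% and 12.8% of all genes. EIF4EBP2, which restrains cap-dependent initiation, rose by 0.58 ± 0.087 by its brightest probe set, and 4 further EIF4EBP2 probe sets gave 0.42 (called), 0.14, 0.08 and -0.06. EIF2A rose by 0.47 ± 0.086, while the elongation factor subunits EEF1G and EEF1D fell by 0.39 ± 0.089 and 0.37 ± 0.083. The 6 falls were 1 without the arrays high in hepatocyte markers, and the rises 6, and without those high in muscle or hepatocyte markers the numbers were 0 and 3. Of 36 proteasome subunits 15 fell and none rose (median -0.26), with PSMB7 at 2765, 2979 and 3105 in fasted and 4018, 4383 and 5713 in fed gilts (-0.62 ± 0.096). The groups lay apart in PSMB7, and 12 subunits fell without the arrays high in hepatocyte markers and 5 without those high in muscle or hepatocyte markers.

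Of 26 cytosolic chaperones 9 fell and 2, ST13 (0.36 ± 0.096) and CCT4 (0.28 ± 0.075), rose. HSPB1, a small heat shock protein, was at 1579, 2397 and 2796 in fasted and 5804, 6522 and 8697 in fed gilts (-1.55 ± 0.17), and its relative CRYAB fell by 1.22 ± 0.17 by 1 of its 2 probe sets (the other gave 0.24). HSPB1 was apart between the groups, and 6 chaperones fell without the arrays high in hepatocyte markers and 4 without those high in muscle or hepatocyte markers. Of 36 genes of protein folding and translocation in the endoplasmic reticulum 3 rose, the chaperone CANX (0.46 ± 0.078), SEC63 (0.42 ± 0.068) and the stress regulator ATF4 (0.41 ± 0.10). SRP14 (-0.50 ± 0.12), DAD1 (-0.46 ± 0.091), SPCS1 (-0.29 ± 0.093) and SEC61A1 (-0.25 ± 0.076) of protein translocation and processing fell. These counts, 3 and 4 of 36, are no larger a share than the 9.71% and 12.8% of all genes. These 4 were 2 without fasted replicate 1, 5 or 6 or fed replicate 3, and 1 without the arrays high in hepatocyte markers. Lysosome and autophagy genes split, with 9 of 37 higher and 8 lower, beside 9.71% and 12.8% of all genes. After quantile normalization 14 of them were higher. Cathepsin D (CTSD) was at 2216, 3476 and 4611 in fasted and 1671, 2222 and 2640 in fed gilts (0.63 ± 0.13), and the autophagy receptor SQSTM1 rose by 0.45 ± 0.11, whereas the conjugating enzyme ATG7 fell by 0.54 ± 0.11. The 9 rises were 6 without the arrays high in hepatocyte markers and 1 without those high in muscle or hepatocyte markers, and the 8 falls 5 and 2. Among 32 antioxidant genes 9 fell and 3 rose, with falls in the peroxiredoxins PRDX1 (-1.17 ± 0.12) and PRDX2 (-0.87 ± 0.10) and rises in the mitochondrial superoxide dismutase SOD2 (0.54 ± 0.14), GPX3 (0.55 ± 0.18) and catalase, CAT (0.22 ± 0.072). The 9 falls were 8 without the arrays high in hepatocyte markers and 6 without those high in muscle or hepatocyte markers. The 3 rises were 1 without fasted replicate 4 or 6 or fed replicate 2, 3 or 6.

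Genes of cell division were lower, at low signal. Of 30 genes 12 fell and none rose (median -0.44), and the list mean was 6.65 to 7.23 in fasted and 7.44 to 7.91 in fed gilts, without overlap. UBE2C, which marks mitotic cyclins for destruction, was at 16.2, 58.7 and 85.8 in fasted and 130, 169 and 200 in fed gilts (-1.80 ± 0.38). TOP2A, the topoisomerase of dividing cells, was at 23.2, 68.8 and 177 in fasted and 128, 234 and 370 in fed gilts (-1.77 ± 0.39), with some overlap. The count fell to 7 without fasted replicate 3 and without fed replicate 3, to 4 without the arrays high in hepatocyte markers and to 2 without those high in muscle or hepatocyte markers. Fed replicate 1, high in macrophage markers, was among the 3 highest of the fed arrays in this list.

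Of 25 genes of growth arrest and of FOXO or glucocorticoid control 6 rose and 1 fell, beside 9.71% and 12.8% of all genes. CDKN1B, an inhibitor of the cell cycle, was at 2618, 2722 and 3259 in fasted and 1221, 1875 and 2340 in fed gilts (0.71 ± 0.13), with further CDKN1B probe sets at 0.43 and -0.04, neither called, and GADD45B, a stress-induced growth arrest gene, rose by 0.86 ± 0.18. Both lay apart between the groups, as did KLF11, also on this list. CDKN1A, a related inhibitor, fell by 0.87 ± 0.22. The rises were 4 without the arrays high in hepatocyte markers and 2 without those high in muscle or hepatocyte markers. FOXO1 itself did not pass (0.26 ± 0.21, adjusted p = 0.47).

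Calls among genes of hormone signalling and adipogenic control were no more frequent than, or close to, the 22.5% of all genes, at 2 of 14 for insulin signalling, 3 of 15 for the growth hormone and IGF axis and 5 of 22 for adipogenic and lipid-sensing regulators. Among 14 insulin signalling genes GRB10, an adaptor that damps the insulin receptor, rose (0.74 ± 0.19), and AKT1 rose by 0.32 ± 0.094, with the AKT1 call lost without fasted replicate 1, 2 or 5 or fed replicate 1 or 4. Both calls were lost without the arrays high in hepatocyte markers. The insulin receptor (INSR) gave 0.58 ± 0.30 (adjusted p = 0.232). Of 15 genes of the growth hormone and IGF axis IGFBP6, a binding protein of IGF2, was at 517, 1005 and 2836 in fasted and 2195, 3259 and 4478 in fed gilts (-1.57 ± 0.25), with overlap. IGF1R rose by 0.47 ± 0.13 and the signal transducer STAT5B by 0.57 ± 0.12, though a second STAT5B probe set gave -0.19. IGF1 was at 403, 593 and 1104 in fasted and 474, 930 and 1170 in fed gilts and missed the threshold (-0.45 ± 0.17, adjusted p = 0.0719), passing without fasted replicate 4 (adjusted p = 0.0203) or fed replicate 6 (adjusted p = 0.0206) and in both fits without the doubted arrays. Of 2 further IGF1 probe sets 1 fell by 0.67 (adjusted p = 0.0216) and 1 gave 0.635 (adjusted p = 0.417).

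Of 22 adipogenic and lipid-sensing regulators 4 rose and 1, SREBF1, fell. The rises were KLF11, the corepressor NCOR1 (0.41 ± 0.087, with further probe sets at -0.04 and 0.16, neither called), the oxysterol receptor NR1H3 (0.36 ± 0.11) and the coactivator NCOA1 (0.31 ± 0.10). PPARG, the master regulator of adipocytes, was at 3658, 4262 and 5593 in fasted and 3411, 4081 and 5648 in fed gilts, and did not pass (0.05 ± 0.11, adjusted p = 0.823). The coactivator PPARGC1A was at 19.2, 28.6 and 35.0 in fasted and 4.02, 15.8 and 20.7 in fed gilts, near the floor of the array, and did not pass (1.30 ± 0.60, adjusted p = 0.166). The 4 rises were 2 without fasted replicate 1, 4 or 5, without fed replicate 2, 4 or 6, and without the arrays high in hepatocyte markers.

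Matrix genes and the markers of stromal cells also moved. Of 39 extracellular matrix genes 14 fell and 5 rose (median -0.27). COL15A1, a collagen of basement membranes, was at 3629, 3991 and 4559 in fasted and 7273, 8363 and 9451 in fed gilts (-1.05 ± 0.10). Lumican (LUM), which spaces collagen fibrils, was at 2908, 3620 and 4101 in fasted and 6894, 8108 and 10680 in fed gilts (-1.25 ± 0.12). In both, every fasted gilt was below every fed gilt. The membrane protease MMP14, which cuts collagen at the cell surface, was at 756, 878 and 1100 in fasted and 360, 413 and 599 in fed gilts (1.03 ± 0.14), and the matricellular protein THBS2 rose by 0.77 ± 0.13, each without overlap. The other rises were THBS1 (0.74 ± 0.19), the protease MMP2 (0.55 ± 0.16) and the protease inhibitor TIMP2 (0.58 ± 0.15). Falls numbered 13 without the arrays high in hepatocyte markers and 8 without those high in muscle or hepatocyte markers.

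Beside these, 4 of 9 fibroblast markers fell, LUM, COL1A2 (-1.49 ± 0.28), THY1 (-1.19 ± 0.16) and DPT (-0.90 ± 0.26), and the summed signal of the 9 was 35150 to 47950 in fasted and 42980 to 68320 in fed gilts. LUM and COL1A2 are on both lists. Of 12 endothelial markers 7 rose and none fell (median 0.41), and their summed signal was 17590 to 28550 in fasted and 13250 to 16030 in fed gilts. Besides CLDN5 the angiopoietin receptor TEK was at 966, 1466 and 2154 in fasted and 505, 786 and 949 in fed gilts (0.90 ± 0.16), with further TEK probe sets at -0.94 and 0.81, neither called, while the VEGF receptors KDR and FLT1 gave -0.36 and -0.18 and did not pass. The mean of the list was highest on fasted replicate 2. The count was 3 without fasted replicate 2 or without the arrays high in hepatocyte markers, 2 without those high in muscle or hepatocyte markers, and 4 with each array centred on its median. Of 10 adipocyte markers 2 fell, SLC2A4 and LPL, of which LPL lost its call as given above, with a summed signal of 91580 to 109400 in fasted and 80270 to 100200 in fed gilts. Single calls were found among macrophage (FCER1G, -0.72 ± 0.24), hepatocyte (APOA1, 0.81 ± 0.13), erythroid (HBB, 0.39 ± 0.11) and smooth muscle and pericyte markers (PDGFRB, 0.40 ± 0.13), and all but APOA1 lost their calls without single arrays. No marker of lymphocytes (11 measured), keratinocytes (4) or Schwann cells and nerve (6) was called. The share called was 58.3% for endothelial and 44.4% for fibroblast markers, beside 22.5% of all genes. It was below that for adipocyte (20.0%), smooth muscle and pericyte (12.5%), macrophage (9.09%) and hepatocyte markers (8.33%), and was 1 of 4 for erythroid markers.

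**Figure D3:**
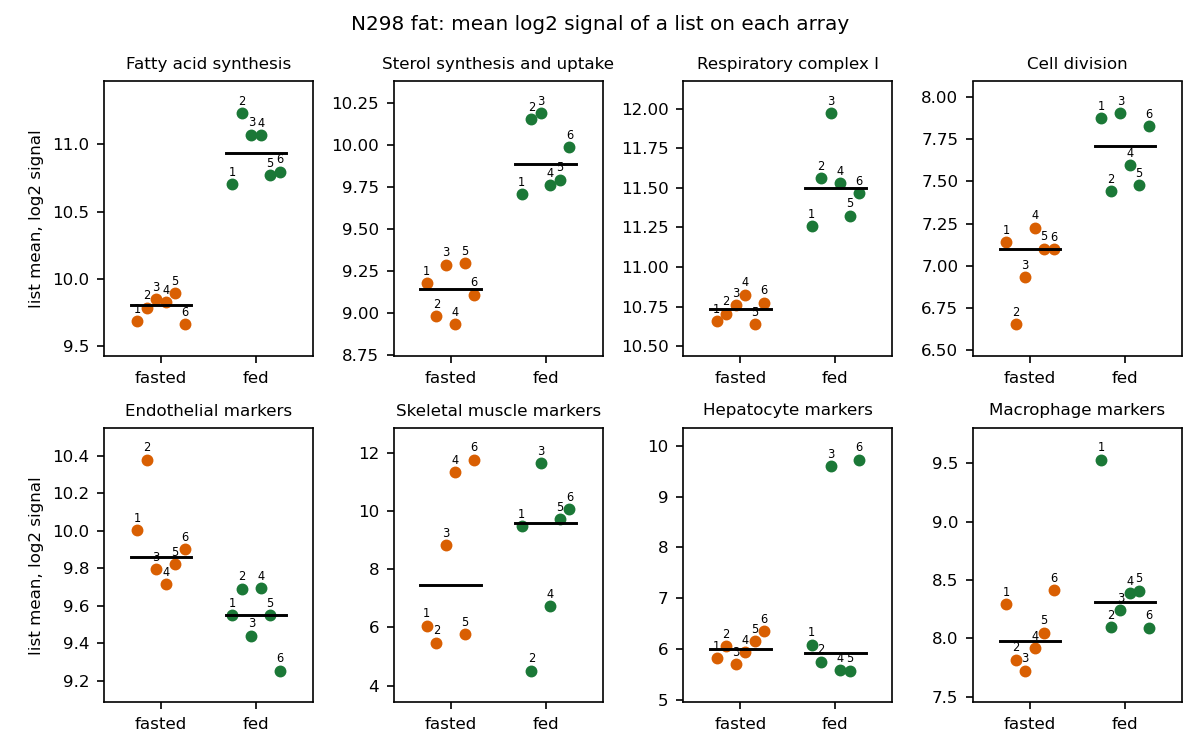
Mean log2 signal of 8 gene lists on each N298 fat array, fasted left and fed right in each panel, with the replicate number over each point and the median of 6 as a bar. Fatty acid synthesis, sterol synthesis, complex I and cell division do not overlap between the groups, the muscle markers spread over both groups, and fed replicates 3 and 6 stand at 9.60 and 9.73 in hepatocyte markers.

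Enzymes of steroid and drug metabolism moved in both directions, with 6 of 28 higher and 7 lower, and 6 and 7 also without the arrays high in hepatocyte markers. HSD17B12, which acts in fatty acid elongation and on oestrone, was at 2684, 3168 and 4343 in fasted and 7439, 9689 and 11900 in fed gilts (-1.56 ± 0.17), and the epoxide hydrolase EPHX1 fell by 1.11 ± 0.16. Neither overlapped. The rises were CYP2B22, SULT1A3, HSD3B1, HSD11B1, FMO1 (0.71) and DPP4, which is on the list though it is a peptidase and not an enzyme of steroids or drugs. The list also holds the fall of STAR beside the rise of HSD3B1. Of 30 complement and acute phase genes 3 rose, ITIH1 (1.30 ± 0.31, with a second probe set at -0.08), ITIH3 (0.89 ± 0.20) and CD59 (0.53 ± 0.16), and of 21 interferon-induced genes 2, IFIT1 (0.82 ± 0.19) and IFIT2 (0.43 ± 0.11). Shares of this size are near or below the 9.71% of all genes that rose. Further probe sets gave 0.74 and 0.74 for ITIH3 and 0.84 for IFIT1, all called. Others, not called, gave 0.31 for CD59, 0.21 for IFIT1, and 0.11 and 0.22 for IFIT2.

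The next question was whether fasting acted differently on N298 and D298 fat. No probe set differed between the genotypes in its response, with 0 of 23999 called (0.0%), a smallest adjusted p of 0.805 and 1368 probe sets (5.7%) at an unadjusted p under 0.05. The median SE of this difference was 0.308 log2 units, which limits what could be seen. In D298 fat 1296 genes were called (19.2%), 503 higher (7.44%) and 793 lower (11.7%). The fat arrays of the genotypes are separate animals, fitted in 1 model. Across all genes the correlation of the N298 and D298 responses was 0.58, as a description. Of the 1522 genes called in N298 fat 1471 (96.6%) had the same sign in D298 fat, and 923 were called in both, which is 60.6% of the N298 and 71.2% of the D298 calls, with 0 in opposite directions. All 12 of the largest falls and 11 of the 12 largest rises were called with the same sign in D298 fat. CKB changed by -3.70 in N298 and -3.17 in D298 fat, FASN by -3.42 and -3.34, SLC25A1 by -2.89 and -2.89, and KLF11 by 1.58 and 1.75. CLDN5 was the rise that did not pass in D298 fat (1.45 in N298 and 0.77 in D298, difference 0.68 ± 0.39 SE, adjusted p = 0.889).

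The 5 genes with the smallest p for a difference were FBLN1, LOC100515383, IFI30, TIMP1 and C1R, none of which passed (adjusted p = 0.805 for each). FBLN1, a glycoprotein of matrix fibres, was at 435, 677 and 778 in fasted and 917, 1077 and 1289 in fed N298 gilts, and at 629, 1168 and 1513 in fasted and 537, 875 and 1745 in fed D298 gilts (difference -1.11 ± 0.23). C1R, a protease of the complement cascade, was at 2890, 4740 and 6205 in fasted and 3690, 4795 and 5846 in fed N298 gilts, and at 5495, 6541 and 12570 in fasted and 2186, 3568 and 6612 in fed D298 gilts (difference -1.07 ± 0.26). In FBLN1 the fasted N298 gilts stood below the fed ones and the D298 groups overlapped, while C1R rose in D298 fat (0.998, adjusted p = 0.000885) and gave -0.07 in N298 fat. Among the lists, the complement and acute phase genes had a median of -0.17 in N298 and 0.59 in D298 fat, with 3 and 13 genes higher, and the 11 macrophage markers -0.36 and 0.61. Fed replicate 1 of the N298 gilts was the array with the highest macrophage markers. The complement and acute phase list had its highest N298 means on fed replicates 3 and 6 (9.27 and 9.33), the arrays high in hepatocyte markers, against 8.73 on fed replicate 1. The part these arrays play in the medians was not tested.

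**Figure D4:**
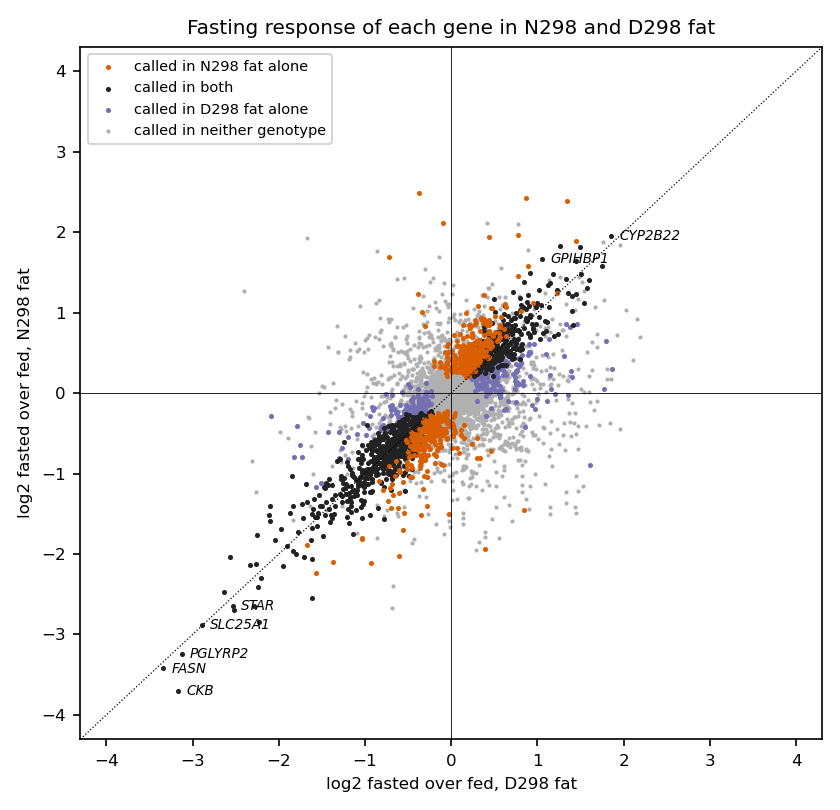
Log2 of fasted over fed for 6765 genes in N298 fat (vertical axis) and D298 fat (horizontal axis), coloured by where each gene was called, with equality as a dotted line. The 923 genes called in both lie in the lower left and upper right only, with the same sign in both, with CKB and FASN at the lower end.

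The same gilts gave liver, so that the response of N298 fat could be set against that of N298 liver in 1 model of 48 arrays, in which the gilt was a random block. The responses differed in 2072 of 23999 probe sets (8.63%), and among genes the change was higher in fat in 310 (4.58%) and lower in fat in 638 (9.43%). The direction depended on scaling: 1058 probe sets were higher and 1014 lower in fat, against 379 and 1573 with each array centred on its median and 781 and 1157 after quantile normalization. In N298 liver 154 genes rose (2.28%) and 92 fell (1.36%), and across all genes the correlation of both responses was 0.097, as a description over genes that share gilts. Leaving out replicate number 2 or 3 left 1223 or 1298 probe sets. Of the 12 largest falls in fat 6 were also called lower in liver, and of the 12 largest rises none was called higher.

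Respiratory and oxidative genes were frequent among these differences. Of 33 complex I genes 26 were lower in fat than in liver by the test of the difference, with medians of -0.77 in fat and 0.08 in liver. Of 14 ATP synthase genes 11 differed so (medians -0.56 and 0.12), as did 14 of 21 genes of the tricarboxylic acid cycle (-0.59 and 0.16) and 14 of 26 of fatty acid oxidation (-0.25 and 0.53). In fatty acid oxidation 11 genes rose in liver and none fell. Branched-chain amino acid breakdown had 10 of 16 genes lower in fat (-0.69 and 0.22). Sterol synthesis ran the other way, with 6 of 14 genes higher and 1 lower in fat (medians -0.75 in fat and -1.68 in liver). HMGCS1 gave -0.40 in fat, not called, and fell by 2.96 in liver, a difference of 2.55 ± 0.30, and SQLE gave -0.67 in fat, not called, and fell by 3.06 in liver (difference 2.39 ± 0.37). Cell division held no called difference among 30 genes (-0.44 and -0.59).

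PGLYRP2, CKB and SLC25A1 were among the genes above the median signal in fat whose responses differed most between the tissues. PGLYRP2 fell in fat, while liver was at 5330, 6294 and 7349 in fasted and 3153, 3525 and 4356 in fed gilts, without a call there (0.81, difference -4.06 ± 0.34, adjusted p = 9.14e-12). The livers of the fasted gilts were all above those of the fed gilts, and the fat of the fasted gilts was all below. SLC25A1 fell in fat and was at 5142, 5472 and 6874 in fasted and 3210, 4436 and 5062 in fed livers (difference -3.29 ± 0.24), again apart in the opposite direction but not called in liver. CKB was dim in liver, at 112, 153 and 170 in fasted and 51.7, 122 and 243 in fed gilts (difference -3.99 ± 0.45). FASN fell in both tissues, and ACACA was lower in both but dim in liver. Liver ACACA was at 4.18, 7.21 and 72.1 in fasted and 27.0, 45.7 and 128 in fed gilts, with overlap, so its change there is imprecise. FASN changed by -3.42 in fat and -3.35 in liver (difference -0.08, adjusted p = 0.937), and ACACA by -2.65 in fat and -2.47 in liver (difference -0.18, adjusted p = 0.936).

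**Figure D5:**
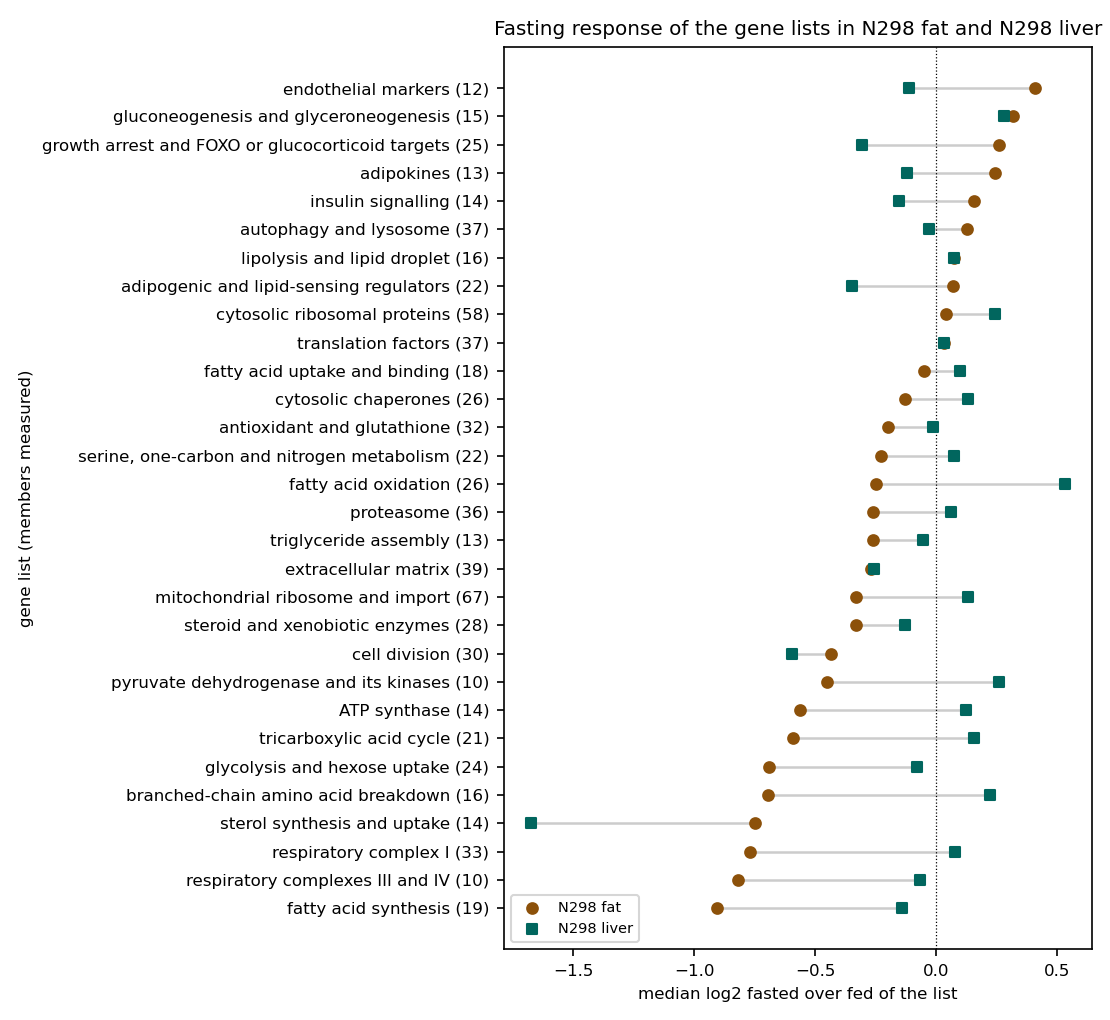
Median log2 of fasted over fed for 30 gene lists in N298 fat (brown circles) and N298 liver (green squares), with the number of members measured in brackets and lists ordered by their median in fat. Complex I stands at -0.77 in fat and 0.08 in liver, and sterol synthesis at -0.75 in fat and -1.68 in liver.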

How the data were processed

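The values are signal intensities deposited by the authors, linear values with 1 entry for each probe set of an array, made with the affy package and the MAS5 method per the submitters' processing notes, which name no versions. The deposited intensities share a scale: on each array their mean is 500 once 2% of values are trimmed at either end. Array medians were 159 to 184 over the 12 N298 fat arrays, and the number of arrays limits the precision. MAS5 detection calls were not used here. Log2 was taken with nothing added, and 124 control probe sets were left out.

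All 24 fat arrays were fitted in limma 3.58.1 (R 4.3.3; lmFit, eBayes with trend) as 4 groups with the replicate number as a fixed block, since the study describes a block design, and the contrasts were N298 fasted minus fed and its difference from the D298 contrast. All p values of the text are from limma, 2-sided, and Benjamini-Hochberg adjusted over 23999 probe sets. The tissue difference used 48 arrays and took the gilt as a random block (correlation 0.084), on the assumption that fat and liver of 1 genotype, feeding and number are of 1 gilt. Replicates are separate gilts.

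Symbols came from the array annotation supplied: 10069 probe sets had 1 symbol, 198 several and 13732 none, and 9961 of the first were matched to RefSeq genes of Sscrofa11.1 with 0 symbols changed. Of the 13930 probe sets without a single symbol 1836 were called (13.2%), and these are not named. Each gene is its probe set of highest mean log2 signal in fat (2261 genes had more than 1). The 46 gene lists (1310 entries, 954 measured) and the genes described were chosen with earlier results of these data known. Genes named are the 12 largest rises and falls called above the median signal, up to 4 and 2 per list by p, a fixed set, and the leading genotype and tissue differences. Other list members are named where a count needs them. Fits were tested on simulated data. Summaries were made in pandas 2.3.3 and plots in Matplotlib 3.10.9.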

Additional observations from a re-analysis of the deposited data

Results flagged for a closer look

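In 86 groups of 6 arrays (43 genes, fasted and fed) 5 held an array farther from its group than Dixon's criterion allows, and chance alone gives about 1 in 20. Fasted replicate 4 was lowest for ACSS2 (587, next 838), DPP4 (173, next 313) and PLLP (440, next 789). Fasted replicate 3 was highest for PCK1 (6737, next 3591), and fed replicate 6 was lowest for IGF1 (474, next 885).

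Genes called by the test of the difference, with a mean signal in fat above the median, were ranked by the size of the difference. Among these, the fasting response of N298 fat differed from that of N298 liver most in 10 genes, taken from both directions. It was higher in fat for CYP2B22 by 3.01 (1.95 in fat, -1.06 in liver), SULT1A3 by 2.74 (1.82 and -0.92), HMGCS1 by 2.55 (-0.40 and -2.96), SQLE by 2.39 (-0.67 and -3.06) and AQP3 by 2.17 (1.64 and -0.53). The difference was -4.06 for PGLYRP2 (-3.25 in fat, 0.81 in liver), -3.99 for CKB (-3.70 and 0.29), -3.29 for SLC25A1 (-2.89 and 0.40), -2.74 for NNAT (0.36 and 3.10) and -2.26 for SLC2A5 (-2.30 and -0.03).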

How the results depend on the processing

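The 3718 probe sets called for fasting in N298 fat were 3226 to 4159 under 8 planned settings on all fat arrays (32 added before log2, array weights, brighter probe sets, no trend, both normalizations, no replicate block and a random block), 3087 with the 12 N298 arrays alone and 2937 to 3545 when 1 array was left out. They were 2434 without the arrays high in hepatocyte markers, 1342 without those high in muscle or hepatocyte markers and 2071 with the GAPDH ratio as a covariate, and 3388 with muscle and hepatocyte marker means as covariates. The genotype difference held 0 calls in all settings except without replicate number 1, where 4 probe sets were called (range 0 to 4). The tissue difference ranged from 1223 to 1732 when 1 number was left out, against 2072. The numbers paired the samples weakly at most. Correlations of same-numbered N298 arrays were -0.050 to 0.111. Over all fat groups the median correlation was 0.017 for same-numbered and -0.0064 for other arrays, and 7 of 24 fat arrays were closest to one of their own number. With no replicate block 3408 probe sets were called, against 3718. With no replicate block the calls of AKT1 (adjusted p = 0.115), CPT1B (0.122), NR1H3 (0.0824), SEC61A1 (0.0865), FCER1G (0.0622), LPL (0.054), PKM (0.0514) and UCP3 (0.0539) were lost.

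Of 181 named calls 108 kept sign and call in every setting run and 160 in all 12 fits without 1 array. The calls lost in some such fit were those of ACO1, AGPAT2, AKT1, BHLHE40, CD59, CPT1B, DPT, ERG, FCER1G, GPX3, HBB, LPL, NCOA1, NR1H3, PDGFRB, PKM, SCD5, SEC61A1, SLC37A4, SPCS1 and UCP3. Without the arrays high in hepatocyte markers 31 named calls were lost, without those high in muscle or hepatocyte markers 69, and with the GAPDH ratio 44. Signs turned only in genes with no call: C1R (0.0084 after quantile normalization, -0.1226 to 0.002 over fits without 1 array, highest without fed replicate 3), PPARG (-0.0173 median-centred, -0.0057 to 0.1141 over fits without 1 array, lowest without fasted replicate 3), PDK4 (-0.0399 without arrays high in muscle or hepatocyte markers), and FABP4 (-0.0239), MC4R (-0.0147) and PNPLA2 (-0.0019) with the GAPDH ratio. The cause of these shifts was not tested. Signals near the floor, such as those of MC4R and PPARGC1A, are imprecise, and that of SREBF1 was dim in fasted gilts.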
